A study of Mus musculus with 20 samples.

Results

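The renin-angiotensin system was followed in the ovary through 8 genes, which were Agt, Ren1, Ace, Agtr1a, Agtr2, Atp6ap2, Lnpep and Enpep. They were chosen by name from the pathway and matched by symbol to their Ensembl identifiers. All 8 were found among the 54838 genes listed for each library. Renin mRNA (Ren1) stood 23.2-fold higher in estrus than in diestrus in the high-fertility line and 43.3-fold higher in the control line. Its diestrus levels rested on 2 to 22 counts per library, so these folds are imprecise, and they were not shown to differ between the lines. In estrus, both Ren1 and the mRNA of its substrate angiotensinogen (Agt) were lower in the high-fertility line, by 2.48-fold and 2.24-fold. Both lay close to the threshold of the main test. Of 18 alternative fits, Ren1 passed in 9 and Agt in 8, with the same direction in all. The type 2 receptor (Agtr2) rose 4.32-fold from diestrus to estrus in the high-fertility line, where its diestrus level rested on 6 to 27 counts per library. Its 1.69-fold rise in the control line did not pass the main test, and the 2 rises were not shown to differ. The transcripts of the prorenin receptor, the converting enzyme, the type 1a receptor and the aminopeptidases passed the main test in no comparison.

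Angiotensinogen is a secreted protein from whose end renin cuts angiotensin I, and the angiotensin-converting enzyme trims that peptide to angiotensin II. Angiotensin II acts through the type 1 and type 2 receptors, and membrane aminopeptidases shorten it further to angiotensin III and angiotensin IV. The ovary holds its own renin-angiotensin system, with prorenin made in follicles, and the system has been studied there in ovulation, steroid synthesis and follicle atresia.

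The samples were ovaries of 20 female mice aged 77 days, with 5 animals in each of 4 groups. FL1 is the Dummerstorf high-fertility line, bred over many generations for large litters, and ctrl is the unselected line from the same outbred founders, given as WT in the genotype label. Each line was sampled in estrus and in diestrus, staged by vaginal cytology, and no animal received a treatment. One label, the source name, gives FL1 even for the ctrl libraries, so the line was read from titles and genotype. Each line is a single breeding population, so effects of selection and of drift between the lines cannot be told apart, and animals of an outbred population differ in genotype. Ovaries were freed of fat, oviduct and tunica albuginea before RNA extraction, and each library holds 1 animal. The labels do not tie animals with the same number in different groups to each other. Reads were taken from the 3' end of mRNA, so 1 transcript gives about 1 read whatever its length, and levels are given as CPM, counts scaled to library size with TMM factors, without division by length.

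Libraries held 5991223 to 10352718 counts with a median of 6957533, and 3 counts corresponded to 0.290 to 0.501 CPM. Granulosa, oocyte and luteal markers were detected in all 4 groups, as were the theca markers Cyp17a1, Hhip and Ptch1, while the theca marker Insl3 held 0 to 3 counts per library in ctrl and 0 in FL1. Replicate 5 of ctrl in estrus correlated least with its own group, with a mean r of 0.938 over log2 CPM against at least 0.954 for the other 19 libraries. Its summed fat markers were the highest of the 20 libraries, at 113 CPM. Its summed granulosa, theca and oocyte markers were the lowest of the 20, at 1262, 65.7 and 138 CPM. The luteal sum of this library was the highest in estrus, at 31179 CPM. Because ovaries were sequenced without separating their cell types, fewer cells of a type and less RNA per cell cannot be told apart.

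The sequences just ahead of the start sites of Ren1 and Agt are shown because these are the genes that differed between the lines in estrus. They are the 250 bases before the RefSeq start, from the GRCm38.p6 table, at chr1:133350424-133350673 on the plus strand for Ren1 and at chr8:124569707-124569956 on the minus strand for Agt. Capitals mark the TATA box word TATAAA, which begins 29 bases before the start in Ren1 and 30 bases before it in Agt.
Ren1: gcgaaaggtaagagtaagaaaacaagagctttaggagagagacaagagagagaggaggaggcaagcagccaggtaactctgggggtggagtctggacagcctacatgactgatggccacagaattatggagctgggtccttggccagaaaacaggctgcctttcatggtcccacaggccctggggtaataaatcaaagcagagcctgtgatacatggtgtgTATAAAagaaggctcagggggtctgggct
Agt: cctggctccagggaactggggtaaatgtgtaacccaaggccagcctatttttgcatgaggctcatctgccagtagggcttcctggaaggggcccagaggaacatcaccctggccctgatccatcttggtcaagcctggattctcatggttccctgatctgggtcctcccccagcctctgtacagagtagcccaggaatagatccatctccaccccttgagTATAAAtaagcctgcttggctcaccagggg
The start of the Ren1 gene in the GENCODE annotation, at position 133350510, lies inside the printed window. Windows were found for 7 of the 8 genes, not for Agtr1a, and Ace had a window for each of its starts, which gave 8 windows. TATAAA was searched on both strands and occurred in 12.4% of all 32851 windows of this length. It also occurred, on the opposite strand, in the upstream window of Ace and in that of Enpep. The word CCAAT occurred in 33.8% of all windows and was found for Enpep, Ace, Atp6ap2 and Agtr2. TGACG, a word of the cAMP response element, occurred in 17.8% of all windows and among these genes only in Atp6ap2, and AGGTCA, a word bound by nuclear receptors, occurred in 14.0% and among these genes only in Ace. None of the 4 words lies inside another, and a match describes letters, not binding.

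Agt (ENSMUSG00000031980, chr8:124556534-124569706, minus strand, GRCm38) encodes angiotensinogen, the only precursor of the angiotensins. In estrus, replicates 1 to 5 of ctrl held 159, 64.0, 184, 143 and 65.5 CPM. The same replicates of FL1 in estrus held 54.5, 55.5, 53.0, 57.8 and 55.8 CPM. The control animals thus fell into values near 65 and values above 140, whereas the FL1 animals lay within 5 CPM of each other and all below the lowest control.
In diestrus, ctrl replicates held 153, 70.8, 71.6, 41.7 and 66.4 CPM, and FL1 replicates held 39.7, 52.2, 41.6, 33.3 and 40.2 CPM. Here the lines overlapped through ctrl replicate 4, and ctrl replicate 1 stood far above every other diestrus animal.
Group means were 123 ± 55.4 CPM (SD, n = 5) for ctrl in estrus, 80.6 ± 42.1 for ctrl in diestrus, 55.3 ± 1.77 for FL1 in estrus and 41.4 ± 6.80 for FL1 in diestrus. In this order, neighbouring groups overlapped except FL1 in estrus and FL1 in diestrus. The coefficient of variation was 44.9% and 52.2% in the ctrl groups against 3.21% and 16.4% in the FL1 groups, a difference in spread that was not tested.

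Ren1 (ENSMUSG00000070645, chr1:133350510-133360325, plus strand) encodes renin, the protease that acts on angiotensinogen. In estrus, ctrl replicates held 44.5, 29.5, 107, 43.9 and 34.4 CPM, and FL1 replicates held 15.02, 21.3, 17.3, 28.8 and 22.4 CPM. The highest FL1 animal, replicate 4, stayed just below the lowest control, replicate 2, so the lines did not overlap, and ctrl replicate 3 stood apart at the top.
In diestrus, ctrl replicates held 2.08, 0.411, 0.301, 0.824 and 2.00 CPM, and FL1 replicates held 1.43, 0.393, 0.631, 0.851 and 1.17 CPM. These values rest on 2 to 22 counts per library, some at or below 3 counts, and the lines overlapped throughout. Means were 51.9 ± 31.5 CPM (SD, n = 5) for ctrl in estrus, 21.0 ± 5.31 for FL1 in estrus, 1.12 ± 0.861 for ctrl in diestrus and 0.896 ± 0.415 for FL1 in diestrus. The first 3 groups in this order were separated without overlap, and the diestrus groups did not differ beyond their spread. Some mouse strains carry a nearly identical second renin gene, Ren2, which is not among the listed genes, so reads from such a copy could not be told apart from those of Ren1.

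**Figure D1:**
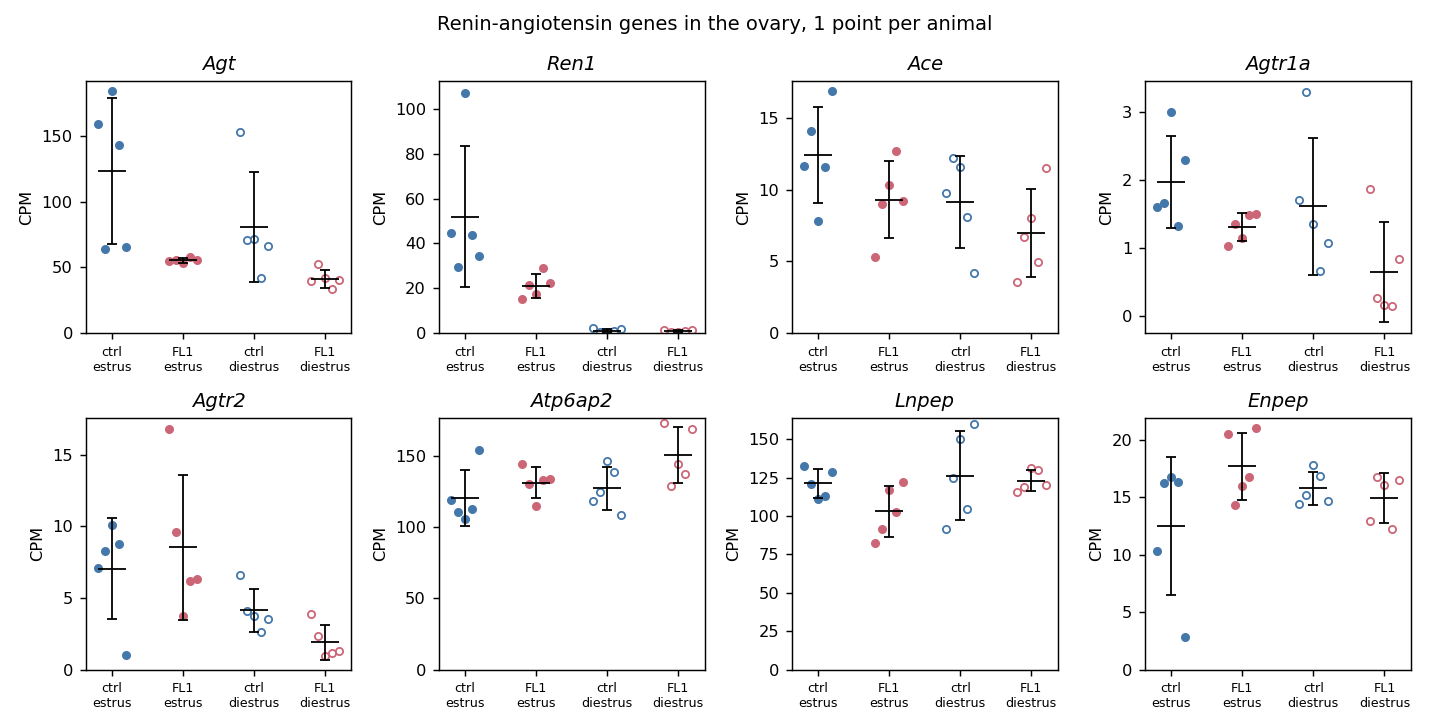
CPM of each of the 8 genes (vertical axes, linear) in the 4 groups of line and stage. Each point is 1 animal, filled in estrus and open in diestrus, blue for ctrl and red for FL1, and bars show the mean ± SD (n = 5). Ren1 was near 0 in diestrus in both lines, and the 5 FL1 animals in estrus lay below all 5 ctrl animals for Agt and for Ren1.

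Within an animal, Agt mRNA exceeded Ren1 mRNA in 20 of 20 libraries, and the ratio depended on the stage. The ratio of Agt to Ren1 ranged from 1.72 to 3.59 in ctrl and from 2.01 to 3.63 in FL1 in estrus. In diestrus it ranged from 33.2 to 238 in ctrl and from 27.7 to 133 in FL1. In estrus the ratio therefore covered nearly the same range in both lines, although both transcripts were lower in FL1.

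**Figure D2:**
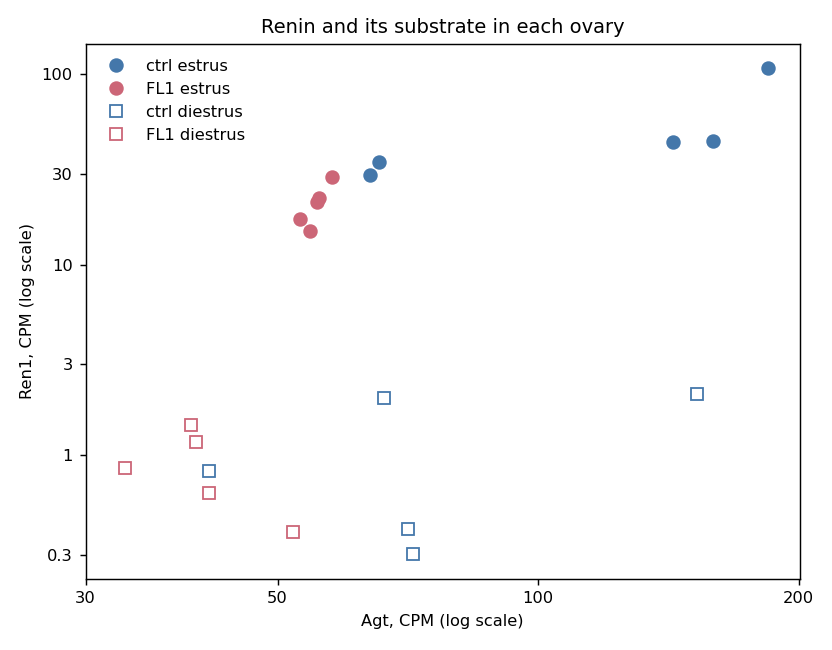
Ren1 CPM against Agt CPM in each of the 20 ovaries, both on log axes. Filled circles are estrus and open squares diestrus, blue for ctrl and red for FL1. Estrus animals lie above 15 CPM of Ren1 and diestrus animals at or below 2.08 CPM, and in estrus the FL1 animals occupy the lower left.

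Atp6ap2 (ENSMUSG00000031007, chrX:12587801-12617049) encodes the prorenin receptor, which is also an accessory subunit of the vacuolar H+-ATPase. It was abundant and even, between 106 and 173 CPM over the 20 animals. Its means were 150.5 ± 19.4 CPM (SD, n = 5) in FL1 in diestrus, 131 ± 10.7 in FL1 in estrus, 127 ± 15.1 in ctrl in diestrus and 120 ± 19.4 in ctrl in estrus, and all neighbours overlapped. The transcript exceeded that of Ren1 in 19 of 20 animals. The exception was ctrl replicate 3 in estrus, the animal with the most renin mRNA.

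Ace (ENSMUSG00000020681, chr11:105967945-105989964) encodes the angiotensin-converting enzyme, a peptidase of vascular surfaces. It ranged from 3.59 to 16.9 CPM, with means of 12.4 ± 3.36 CPM (SD, n = 5) in ctrl and 9.31 ± 2.68 in FL1 in estrus, and of 9.15 ± 3.23 in ctrl and 6.96 ± 3.06 in FL1 in diestrus. All 4 groups overlapped with their neighbours. An annotated gene on the opposite strand, Gm11651, overlaps Ace, and the strand setting of the counting is not given in the sources used here.

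Agtr1a (ENSMUSG00000049115, chr13:30336441-30382867) encodes the type 1a receptor, the main receptor for the pressor action of angiotensin II. By group mean it was the least abundant of the 8 transcripts in estrus, with 1.61, 1.66, 3.01, 1.32 and 2.29 CPM in ctrl and 1.03, 1.35, 1.16, 1.48 and 1.5 CPM in FL1. In diestrus it held 1.70, 3.29, 1.35, 0.659 and 1.08 CPM in ctrl and 1.86, 0.262, 0.158, 0.142 and 0.835 CPM in FL1. Replicates 2, 3 and 4 of FL1 in diestrus were thus at or below the level of 3 counts, and all groups overlapped with their neighbours. The overlapping gene Gm48161 lies on the same strand. The other rodent type 1 receptor gene, Agtr1b, had 0 counts in all 20 libraries.

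Agtr2 (ENSMUSG00000068122, chrX:21484544-21489164) encodes the type 2 receptor, which is prominent in fetal tissue and is retained in the adult ovary. In estrus, ctrl replicates held 7.12, 8.29, 10.1, 8.77 and 1.06 CPM, and FL1 replicates held 16.8, 9.62, 3.78, 6.21 and 6.32 CPM. In diestrus, ctrl replicates held 6.62, 4.11, 3.76, 2.64 and 3.54 CPM, and FL1 replicates held 3.87, 2.36, 0.946, 1.13 and 1.34 CPM. The low value in ctrl in estrus was that of replicate 5, the library that correlated least with its group. Replicates 2 to 5 of FL1 in diestrus were below every animal of the other groups except that library, and the group overlapped FL1 in estrus only through its replicate 1. Agtr2 exceeded Agtr1a in 19 of 20 animals, with a median ratio of 4.10, and the exception was again ctrl replicate 5 in estrus.

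Enpep (ENSMUSG00000028024, chr3:129269175-129332720) encodes aminopeptidase A, which converts angiotensin II to angiotensin III. It lay between 10.3 and 21.0 CPM in 19 animals and at 2.82 CPM in ctrl replicate 5 in estrus. Its means were 12.5 ± 6.02 CPM (SD, n = 5) in ctrl and 17.7 ± 2.92 in FL1 in estrus, and 15.8 ± 1.46 in ctrl and 14.9 ± 2.17 in FL1 in diestrus. Lnpep (ENSMUSG00000023845, chr17:17521410-17625050) encodes the insulin-regulated aminopeptidase, which binds angiotensin IV and also cleaves oxytocin and vasopressin. It was more abundant, between 82.3 and 160 CPM, with means of 121 ± 9.45 CPM in ctrl and 103 ± 16.6 in FL1 in estrus, and of 126 ± 29.1 in ctrl and 123 ± 6.88 in FL1 in diestrus. For both aminopeptidases all neighbouring groups overlapped. Gm42628 overlaps Enpep on the opposite strand, and Gm49784 overlaps Lnpep on the same strand.

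The first comparison asked how the ovary of the high-fertility line differs from that of the unselected line in estrus. By edgeR's quasi-likelihood test with Benjamini-Hochberg adjustment over all genes tested, 2 of the 8 genes were lower in FL1 and none was higher, where 1.26% of the 13374 genes tested were lower and 2.33% differed in either direction. Ren1 was lower by a log2FC of -1.31 ± 0.31 (SE, adjusted p = 0.0412), and Agt by -1.16 ± 0.25 (adjusted p = 0.0291). Both were lower in 5 of 5 FL1 animals than in every control, with an exact permutation p of 0.00794, the smallest that 5 against 5 allows, and 2.4% of the genes tested were lower in this way. The median log2FC of the 8 genes was -0.32, beside -0.0052 over all genes tested. Agt in estrus is on the study's own list of fertility genes drawn from these same libraries, so its call here is not independent evidence of its direction. The study also lists Agt as lower in FL1 in estrus by qPCR, in a larger set of animals. Whether that set includes the sequenced animals is not stated.

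Both calls lay close to the threshold, and both were lost with library totals alone in place of TMM scaling (adjusted p = 0.0561 for Ren1 and 0.0510 for Agt). The call of Agt was lost without any 1 of 8 libraries, which were ctrl replicates 1, 3 and 4 and the 5 FL1 replicates, with adjusted p-values of 0.0580 to 0.0777 and log2FC of -0.97 to -1.18. The call of Ren1 was lost without ctrl replicate 1 or 4 or any FL1 replicate, with adjusted p-values of 0.0542 to 0.107 and log2FC of -1.22 to -1.45. Leaving out ctrl replicate 3, the animal highest in both transcripts, gave -0.86 for Ren1, which was still called, and -0.97 for Agt. Without ctrl replicate 5 the values were -1.42 (adjusted p = 0.0199) for Ren1 and -1.32 (adjusted p = 0.00310) for Agt.

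The other 6 genes did not pass the test in estrus. The log2FC (95% interval) was -0.59 (-1.29 to 0.11) for Agtr1a, -0.41 (-0.90 to 0.07) for Ace, 0.49 (-0.15 to 1.13) for Enpep and 0.25 (-0.65 to 1.15) for Agtr2. The 2 most abundant of them were held more narrowly, at -0.23 (-0.46 to -0.0059) for Lnpep and 0.12 (-0.10 to 0.35) for Atp6ap2. The intervals are unadjusted. The direction of Agtr2 rested on single animals, since it was -0.01 without ctrl replicate 5 and -0.15 without FL1 replicate 1.

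In diestrus, the same question gave 0 of 6 genes tested past the threshold, where 4.11% of the 13259 genes tested were called. DESeq2 and limma-voom also called 0. By edgeR 3 of the 6 genes had an unadjusted p under 0.05, as did 2351 of the 13259 genes tested. These were Agt with a log2FC of -0.97 ± 0.26 (adjusted p = 0.0523), Agtr2 with -1.10 ± 0.41 (adjusted p = 0.163) and Atp6ap2 with 0.24 ± 0.11 (adjusted p = 0.244). Agtr2 entered this test through its ctrl libraries, since replicates 3, 4 and 5 of FL1 held only 6, 8 and 8 counts. Its p-value therefore adds nothing to the values of the animals. Agt was called without ctrl replicate 1 (-0.60, adjusted p = 0.0497) and without ctrl replicate 4 (-1.13, adjusted p = 0.0138), and the groups overlapped for all 8 genes, where 5.45% of the genes tested did not overlap. Ren1 and Agtr1a were too low in diestrus to enter the test, and exact permutation of their CPM gave p = 0.595 and p = 0.119. The fold between the lines in diestrus was thus not detectable for Ren1 at this depth.

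The stages were compared within each line, which shows how the 8 genes follow the estrous cycle. These comparisons share their libraries with the line comparisons. In ctrl, 1 of 8 genes passed, where 2.85% of the 13334 genes tested were called and 1.78% were higher in estrus. This was Ren1, with a log2FC of 5.44 ± 0.49 (adjusted p = 1.05e-04), the fourth-largest rise of all genes tested. It did not overlap between stages (exact permutation p = 0.00794), as was so for 2.86% of the genes tested in this direction. Ren1 entered this test through its estrus libraries, so its call, rank and lack of overlap add nothing to the values of the animals. For Agtr2 the log2FC was 0.76 (95% interval -0.09 to 1.61), and for Agt it was 0.61 (-0.08 to 1.29).

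In FL1, 3 of 7 genes tested were higher in estrus and none was lower, where 7.42% of the 13350 genes tested were higher and 15.9% differed in either direction. Ren1 rose by a log2FC of 4.54 ± 0.29 (adjusted p = 3.24e-08), Agtr2 by 2.11 ± 0.44 (adjusted p = 0.00377) and Agt by 0.41 ± 0.11 (adjusted p = 0.0153). Ren1 and Agt did not overlap between the stages (exact permutation p = 0.00794 for each), as was so for 5.65% of the genes tested in this direction. Agtr2 was higher in estrus in 24 of 25 pairs of animals. The call of Agt was absent when all 20 libraries shared 1 estimate of the spread (0.42, adjusted p = 0.391). Lnpep lay at -0.26 ± 0.10 (adjusted p = 0.0982), and it was called without FL1 replicate 5 of estrus (-0.32, adjusted p = 0.0462). Agtr1a was too low to be tested (exact permutation p = 0.103). Ren1 entered both stage comparisons through its estrus libraries, and so did Agtr2 in FL1, where 3 of its 5 diestrus libraries held only 6 to 8 counts. The calls of these genes between the stages, and the lack of overlap of Ren1, therefore add nothing to the values of the 20 animals.

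**Figure D3:**
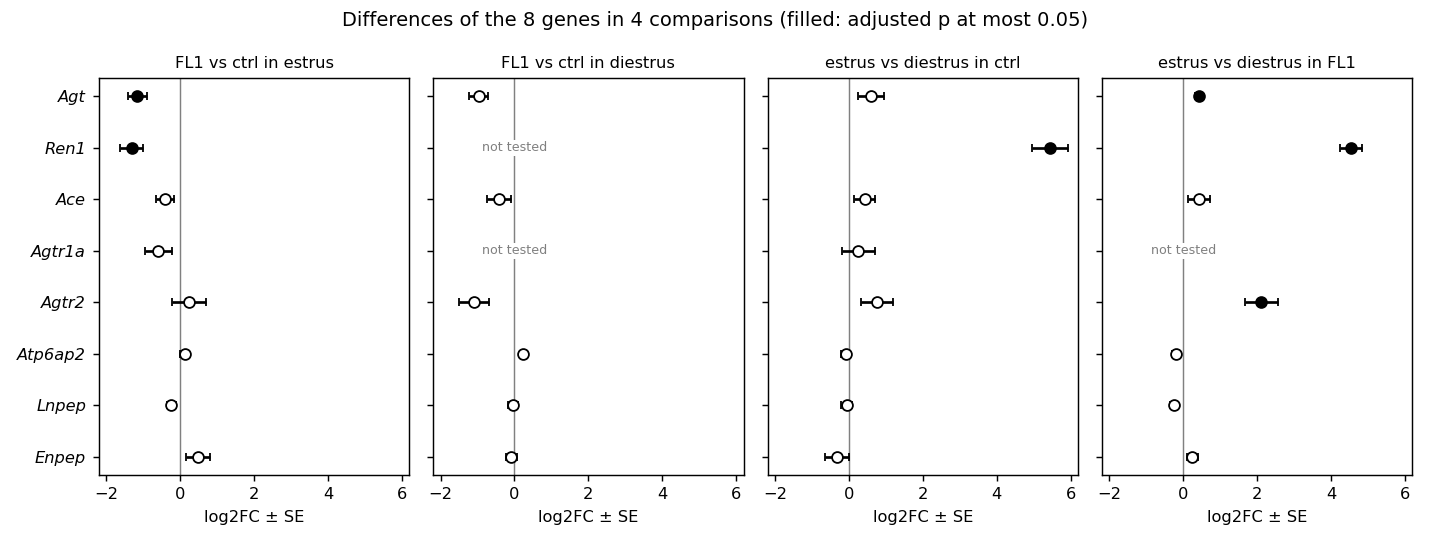
Log2FC of the 8 genes (horizontal axes) in the 4 comparisons, with bars of ± SE from the edgeR fit. Filled points passed an adjusted p of 0.05. Ren1 lies far to the right in both stage comparisons, and Ren1 and Agt lie to the left of 0 between the lines in estrus.

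Whether the line difference itself changed with the stage was tested as an interaction over all 20 libraries, given as the FL1-to-ctrl log2FC in estrus minus that in diestrus. None of the 8 genes was called, where 0.0565% of the 14154 genes tested were called. DESeq2 and limma-voom called 0 as well, and 0 had an unadjusted p under 0.05. The largest estimate was 1.35 ± 0.66 for Agtr2 (adjusted p = 0.432). For Ren1 it was -0.90 (95% interval -2.24 to 0.45), and for Agt it was -0.19 (-0.97 to 0.59). The rise of Agtr2 and Agt with estrus, called in FL1 and not in ctrl, is therefore not shown to differ between the lines.

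Other genes of the pathway were taken from a list of 16 peptidases, receptors and a receptor-binding protein, of which 15 were among the listed genes and 8 to 10 passed the filter on low counts in each comparison. In estrus, 1 of 10 differed between the lines, where 2.33% of all genes tested did. It was Klk1, tissue kallikrein, with a log2FC of 3.04 ± 0.66 (adjusted p = 0.0269) from 0.384 ± 0.394 CPM in ctrl to 3.08 ± 1.41 CPM in FL1. Klk1 held 0 to 5 counts per library in ctrl and 10 to 34 in FL1, so it entered this test only through the group where it was high, and the call adds nothing to these values. It belongs to a large family of near-identical genes, so its counts are uncertain. In diestrus, 0 of 9 were called by edgeR, DESeq2 or limma-voom, and 1 had an unadjusted p under 0.05. This was again Klk1, in the other direction, with a log2FC of -1.57 ± 0.66 (adjusted p = 0.228) between 3.40 CPM in ctrl and 1.17 CPM in FL1, and its interaction of 4.60 ± 1.02 was not called (adjusted p = 0.0920). The call of Klk1 was lost, leaving 0 in estrus, without ctrl replicate 4 or FL1 replicate 1, 4 or 5.

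Between the stages, neprilysin (Mme), which cuts angiotensin I to angiotensin 1-7, was lower in estrus in both lines, by a log2FC of -1.33 ± 0.31 in ctrl (adjusted p = 0.0378) and -0.68 ± 0.17 in FL1 (adjusted p = 0.0124). It was the only 1 of 8 called in ctrl, where 2.85% of all genes tested were called. In FL1, 5 of 9 were called, where 15.9% of all genes tested were. Aminopeptidase N (Anpep), which acts on angiotensin III, rose by 0.63 ± 0.16 (adjusted p = 0.0115), and Klk1, which entered through its estrus libraries, rose by 1.39 ± 0.42 (adjusted p = 0.0344). Agtrap, which binds the type 1 receptor and promotes its internalization, was lower in estrus by -0.58 ± 0.13 (adjusted p = 0.00454). The fifth gene was the carboxypeptidase cathepsin A (Ctsa), with 0.28 ± 0.09 (adjusted p = 0.0401). The median log2FC of this list was 0.06 and -0.02 between the lines in estrus and diestrus, and 0.07 and 0.23 between the stages in ctrl and FL1, beside medians of all genes tested between -0.0093 and 0.0071. The count in ctrl was 0 without replicate 1, 2 or 4 of estrus or 2, 3 or 4 of diestrus, and that in FL1 was 3 without replicate 1 or 4 of estrus or 3 or 4 of diestrus.

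**Figure D4:**
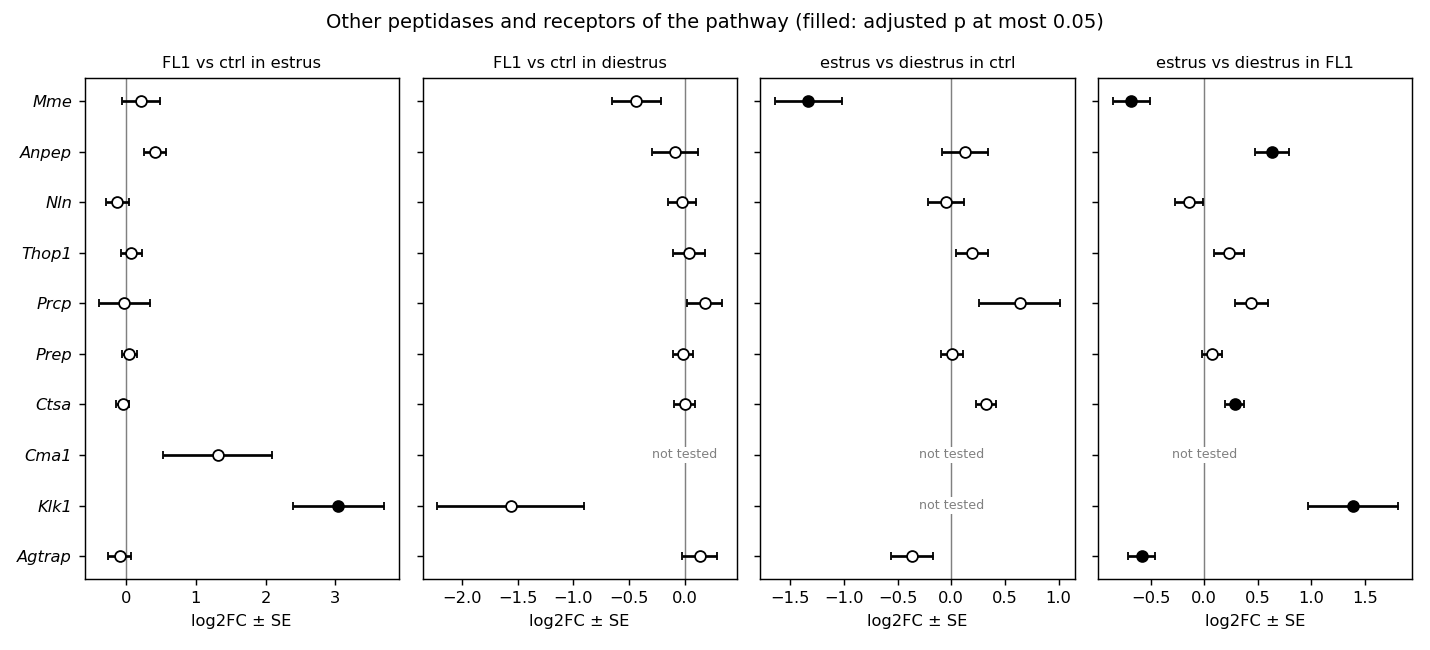
Log2FC ± SE of the 10 other pathway genes that entered a test, in the same 4 comparisons, with a separate horizontal scale for each. Filled points passed an adjusted p of 0.05. Klk1 is to the right between the lines in estrus, and Mme is to the left in both stage comparisons.

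Of 18 genes that couple angiotensin receptors to the cell, such as G proteins, phospholipase C and protein kinase C, 0 of 18 differed between the lines in estrus by edgeR. An unadjusted p under 0.05 was found for 5 of them and for 2121 of the 13374 genes tested. DESeq2, limma-voom and the fit without ctrl replicate 5 each called 1. In diestrus, 2 of 18 were called, both higher in FL1, where 4.11% of all genes tested were called. Both encode phospholipase C beta enzymes, Plcb2 with a log2FC of 2.73 ± 0.42 (adjusted p = 0.00198) and Plcb4 with 0.56 ± 0.14 (adjusted p = 0.0347). Plcb2 held 5.49 ± 2.00 CPM in FL1 and 0.814 ± 0.450 CPM in ctrl (SD, n = 5). With 2 to 10 counts per library in ctrl and 23 to 48 in FL1, it entered the test through FL1, and its call adds nothing to these values. In the stage comparisons, Plcb1 was higher in estrus in ctrl by 0.97 ± 0.21 (adjusted p = 0.0270), 1 of 17 tested against 2.85% of all genes. In FL1, 3 of 18 were called, a share near the 15.9% of all genes tested, and all 3 were lower in estrus. They were Plcb4 (-0.54, adjusted p = 0.00914), the calcium channel Itpr1 (-0.34, adjusted p = 0.0249) and the kinase Prkca (-0.43, adjusted p = 0.0281). Plcb4 was also the only gene of the list with an interaction, -0.97 ± 0.18 (adjusted p = 0.0360). It stood at 25.8 ± 1.94 CPM in ctrl and 19.4 ± 2.16 in FL1 in estrus, and at 19.1 ± 3.09 in ctrl and 28.2 ± 3.58 in FL1 in diestrus. These counts moved with single libraries. In diestrus 1 was called without any 1 library other than ctrl replicate 5 and FL1 replicate 2, and in ctrl 0 without replicate 1, 2 or 4 of estrus or 2, 3, 4 or 5 of diestrus. In FL1 there were 1 without replicate 2 or 4 of estrus or 3 of diestrus and 6 without replicate 3 of estrus. The interaction of Plcb4 was lost, leaving 0, without any 1 of 14 of the 20 libraries, the exceptions being replicates 1 and 5 of ctrl and 2 and 3 of FL1 in estrus, replicate 5 of ctrl and replicate 2 of FL1 in diestrus.

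Atp6ap2 was set beside 15 other subunits of the vacuolar H+-ATPase, the proton pump it associates with. Of the 14 tested, 0 were called by edgeR between the lines in either stage or between the stages in ctrl, with 0, 1 and 0 at an unadjusted p under 0.05, and 0 by DESeq2 and limma-voom. Between the stages in FL1, 2 of 14 were called, again near the 15.9% of all genes tested, and both were lower in estrus, Atp6v1d (-0.28, adjusted p = 0.0246) and Atp6v0a1 (-0.38, adjusted p = 0.0318), beside -0.20 ± 0.10 for Atp6ap2 (adjusted p = 0.176). That count was 0 without replicate 1, 2 or 4 of estrus or 3, 4 or 5 of diestrus. Among 9 further aminopeptidases and related metallopeptidases, beside Enpep and Lnpep, 5 were tested and 0 were called in any comparison by edgeR, DESeq2 or limma-voom, with 0 or 1 at an unadjusted p under 0.05.

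The genes whose log2 CPM was most like that of Ren1 over the 20 libraries, among those with at least 10 counts in 15 or more libraries, were Pcsk5 (r = 0.960), Igfbp2 (r = 0.946) and Wnt6 (r = 0.937). Pcsk5 encodes a proprotein convertase, Igfbp2 a binding protein of insulin-like growth factors, and Wnt6 a secreted Wnt ligand. After the 4 group means were subtracted, r was 0.42, 0.62 and 0.27, so much of the likeness lay between the groups. The mean of Igfbp2 was 93.3 ± 21.2 CPM in ctrl and 50.6 ± 6.66 in FL1 in estrus (SD, n = 5) and 23.6 ± 6.93 and 24.6 ± 2.43 in diestrus. As for Ren1, every FL1 animal in estrus was below every control, as was so for 2.4% of the genes tested in this direction. Igfbp2 was chosen for its likeness to Ren1 over these same libraries, so the shared pattern is not independent of that choice. The study itself lists Igfbp2 as lower in FL1 in estrus, by sequencing and by qPCR. Wnt6 separated the stages and overlapped between the lines, with 77.3 ± 4.54 CPM in ctrl and 80.4 ± 17.4 in FL1 in estrus.

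For Agt the most similar genes were Adamts2 (r = 0.869), a procollagen peptidase, Rpl26 (r = 0.866), a ribosomal protein, and Serinc5 (r = 0.866), a membrane protein. After subtraction of group means r remained 0.70, 0.73 and 0.69, and these correlations, chosen as the highest of 12637, are given without a test. Rpl26 was between 9.47 and 25.5 CPM in 15 libraries and between 199 and 470 CPM in the other 5, which were ctrl replicates 1, 3, 4 and 5 in estrus and ctrl replicate 1 in diestrus. Of these 5 animals, 4 are the same animals that held over 140 CPM of Agt. Ribosomal protein genes have near-identical copies, so the level of Rpl26 is uncertain. For Agtr2 the most similar genes were Nlrp4b (r = 0.872), an oocyte-expressed gene, Ostc (r = 0.862), a subunit of the oligosaccharyltransferase, and Knstrn (r = 0.859), a spindle protein, and r after subtraction of group means was 0.75, 0.77 and 0.89. Spearman's rho of these 9 genes lay between 0.764 and 0.958, and r without the 2 libraries farthest from the member's median between 0.793 and 0.969.

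Markers of other cell types moved beside these results, and their part in them was not tested. Between the lines in estrus, the pericyte marker Rgs5 was lower in FL1 by a log2FC of -1.41 ± 0.21 (adjusted p = 0.00230). It was the only 1 of 7 pericyte and smooth muscle markers called, where 2.33% of all genes tested were called. The summed level of that list was 1245 to 1782 CPM in ctrl and 1196 to 1563 CPM in FL1, and of the endothelial list, 0 of 6 called, it was 264 to 452 CPM and 212 to 284 CPM. Leukocyte markers summed to 201 to 284 CPM in ctrl and 261.8 to 507 CPM in FL1, with 1 of 6 called higher, beside the same 2.33%. Between the stages, 1 of 3 theca markers tested was called in each line, where 2.85% of all genes tested were called in ctrl and 15.9% in FL1. It was Cyp17a1, which was lower in estrus by -5.02 in ctrl (adjusted p = 0.00299) and -3.83 in FL1 (adjusted p = 1.10e-09). Hhip and Ptch1 were not called, at 0.09 and 0.39 in ctrl and -0.51 and -0.14 in FL1. Of the 7 pericyte and smooth muscle markers, 2 were called in ctrl and 2 in FL1, all higher in estrus. In diestrus that list summed to 845 to 1314 CPM in ctrl and 876 to 1395 CPM in FL1. The luteal list summed to 10639 to 31179 CPM in estrus and 24013 to 43840 CPM in diestrus over both lines. In FL1, 5 of 6 luteal, 4 of 6 endothelial and 4 of 5 blood markers were lower in estrus, and 4 of 5 surface epithelium markers were higher, where 15.9% of all genes tested were called. Granulosa markers were lower in estrus for 3 of 6 tested in FL1 and 1 of 6 in ctrl, where 2.85% of all genes were called. Between the lines, 0 of 6 were called in estrus and 1 of 6, higher in FL1, in diestrus, where 4.11% of all genes were called. Oocyte markers, set beside Agtr2, summed to 195 to 468 CPM in FL1 in estrus and 157 to 243 CPM in FL1 in diestrus. Of these, 1 of 6 was called higher in estrus, where 7.42% of all genes tested were.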

How the data were processed

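The authors prepared QuantSeq 3' mRNA libraries from 20 ovaries, trimmed the reads and aligned them with STAR 2.6.0a to GRCm38 with the Ensembl annotation, and the labels' processing notes also name Cuffdiff. They deposited, for each animal, raw counts of uniquely assigned reads per gene. The counting tool and its strand setting are not given in the sources used here, and no molecular identifiers are named. Reads shared by near-identical genes are not uniquely placed, which affects kallikreins and ribosomal proteins. Reads of a possible second renin gene, which is not among the listed genes, could have been counted for Ren1.

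Symbols and positions were taken from GENCODE M21 (GRCm38), which held 54809 of the 54838 genes. The main test was edgeR 4.0.16 (glmQLFit, glmQLFTest; R 4.3.3) with TMM scaling, filterByExpr at a minimum count of 10, and Benjamini-Hochberg adjustment over all genes tested, with calls at an adjusted p of at most 0.05. It was fitted on the 10 libraries of each comparison, and on all 20 for the interaction. SE was taken as |log2FC|/√F from the F statistic of the test, and 95% intervals are ± 1.96 SE. These intervals use a normal quantile, so they are too narrow for groups of this size, and calls rest on the test alone. CPM used TMM factors over all 20 libraries. Log2 CPM for likeness used a prior count of 2. Single values were compared by exact two-sided permutation over all 252 splits. Motif words were searched on both strands of the 250 bases before each RefSeq start. DESeq2 1.42.0, limma 3.58.1 (voom with sample weights), other scalings and filters, a replicate block and leaving out each library were tried as alternatives. The code was tested on simulated data.

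Named genes were all 8 members, up to 5 called genes of each pathway list by p, and the 3 genes most like each member called. The members and all lists were chosen with earlier results of these data known. A gene of the pathway list is not reported here. No 2 libraries of a group agreed within sampling noise (chi-square per gene 6.32 to 46.6 over 40 pairs). Precision at low levels is limited by depth, since 3 counts are 0.290 to 0.501 CPM.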

Additional observations from a re-analysis of the deposited data

Results flagged for a closer look

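In 3 of the 32 combinations of gene and group, 1 animal lay far from the other 4 by Dixon's ratio of gap to range at the 95% critical value for 5 samples. Chance flags about 1 in 20 groups, or 1.6 of 32. Ren1 in ctrl in estrus was 107 CPM in replicate 3, where the next animal held 44.5 CPM, a ratio of 0.808. Agt in ctrl in diestrus was 153 CPM in replicate 1 against 71.6 CPM in the next, a ratio of 0.730. Atp6ap2 in ctrl in estrus was 154 CPM in replicate 5 against 119 CPM in the next, a ratio of 0.718. That library had the highest fat markers and the lowest granulosa, theca and oocyte markers. All 3 animals belong to the ctrl line.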

How the results depend on the processing

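Between the lines in estrus, Agt was called in 8 and Ren1 in 9 of 18 alternatives, with the same direction in all 18 (log2FC -1.32 to -0.97 and -1.46 to -0.86, adjusted p 3.45e-04 to 0.0777 and 8.78e-04 to 0.107). Of the 8 genes, 2 were called there, but 0 with library totals alone and 0 with the replicate block, and 0 to 2 when 1 library was left out. In diestrus 0 were called, but 1, Agt, when genes with at least 1 count in total were kept and 1 with the replicate block, and 0 to 1 when 1 library was left out. A filter of at least 10 counts in every library removes Ren1 in ctrl, which leaves 0 called between the stages, and removes Ren1 and Agtr2 in FL1, which leaves 1. The replicate block changed no other call of the 8 genes. With the block, the list of other pathway genes had 0 called between the lines in estrus and 3 between the stages in FL1, and the coupling list had 0 between the stages in ctrl. Replicate numbers were not taken to pair animals, since deviations from the group means of same-numbered libraries correlated at only -0.09 to 0.12. Libraries correlated best with their own number in 2 to 4 of 10 cases per comparison, a hint from the data and not the design.

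Over all genes, calls in estrus numbered 311, and 670 with DESeq2, 477 with at least 1 count in total, 531 in 1 fit of all 20 libraries and 175 to 418 without 1 library. In diestrus they numbered 545, and 892 with DESeq2, 846 with at least 1 count and 349 to 594 without 1 library. Between the stages in ctrl they numbered 380, and 768 with DESeq2, 655 with limma-voom, 909 in 1 fit of all 20 libraries and 176 to 516 without 1 library. For the interaction they numbered 8, and 152 with DESeq2, 31 with limma-voom, 17 with at least 1 count and 0 to 15 without 1 library. The cause was not tested.

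Directions turned only where the main estimate was smaller than its SE. Agtr2 between the lines in estrus was -0.12 with limma-voom and -0.15 to 0.44 without 1 library. Lnpep without 1 library was -0.13 to 0.064 between the lines in diestrus and -0.16 to 0.035 between the stages in ctrl. The interaction of Ace was 0.025 with library totals alone, 0.25 with limma-voom, 0.0010 with at least 1 count, 0.015 with at least 10 counts in every library, 0.040 with the replicate block and -0.17 to 0.25 without 1 library. At 2 to 22 counts per library, depth limits what can be said of Ren1 in diestrus.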
